A study of Homo sapiens with 8 samples.

Results

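Receptor-type tyrosine phosphatases are membrane proteins whose outer part meets other cells, matrix or ligands and whose inner part removes phosphate from tyrosines. They oppose tyrosine kinases, with the exception that some of them switch SRC-family kinases on by removing an inhibitory phosphate. In epithelial cells they are known for acting at cell contacts, on cadherin-catenin complexes and on growth factor receptors. PTPRB, also called VE-PTP, is best known from blood vessel endothelium, where it acts on the TEK receptor and on VE-cadherin.

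PTPRB and 9 relatives (PTPRA, PTPRE, PTPRF, PTPRG, PTPRH, PTPRJ, PTPRK, PTPRS and PTPRU) were followed in 8 RNA sequencing libraries of Panc 10.05, an established line grown from a human adenocarcinoma of the pancreas. The libraries were 4 of control cells and 4 of cells that overexpress ELAPOR1 from a transgene; the promoter, the vector, the control construct and the number of clones were not given in the sources used here. The genes were taken by symbol, and all 10 were found among 58870 gene rows. PTPRB was chosen by its strong rise with ELAPOR1 in these same libraries, and the others are its family. The differences of the 10 genes are therefore given as a description, and no p-value is printed for them. Where a member is said to pass or not pass an adjusted p threshold, that is description too. Of the 10, 8 passed the filter on low counts, while PTPRG and PTPRS did not.

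Library totals ran from 13.8e6 to 18.1e6 counts and their difference between groups did not pass an exact permutation test (p = 0.143, two-sided; 0.0286 is the smallest that 4 against 4 can give). ELAPOR1, listed under its older symbol KIAA1324, had 1 to 4 counts in each control library against 5910 to 7368 with the transgene, so the 8 labels held. The epithelial markers EPCAM, CDH1 and KRT8 were abundant in both groups, at 634, 343 and 5355 CPM in control (CPM, counts per 1e6 scaled by TMM). Nothing in the labels says whether libraries of a group came from separate cultures, so p-values measure only the spread between these libraries.

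The catalytic loop is what the family shares. Its signature (histidine, cysteine, 5 residues, arginine, with a glycine inside and serine or threonine after) was searched in the coding sequences of GENCODE release 29 on GRCh38, where 83 of 19702 coding genes (0.421%) hold it. All 10 phosphatases hold it. PTPRB, PTPRG, PTPRH and PTPRJ have it 1 time in the transcript with the longest coding sequence, and the other 6 have it 2 times. Whether each copy belongs to an active domain was not tested. The first copy of the 8 detected genes is shown 5′ to 3′ as coding bases, with the codons of the cysteine and of the arginine of the signature in capitals.
PTPRB: cacTGCagtgctggtgtgggtAGGact
PTPRH: cacTGCagtgctggcgtgggtCGCaca
PTPRJ: catTGCagtgctggggtcggaAGGacg
PTPRA: cacTGCagtgcaggtgtagggCGTaca
PTPRE: cacTGTagcgcgggcgtgggcCGGacg
PTPRF: cacTGCagcgcgggcgtgggcCGCacc
PTPRK: catTGCagtgctggtgctggaCGAact
PTPRU: cacTGCagcgcgggcaccggcCGCaca
The second copies of PTPRF, PTPRK and PTPRU are shown because those of PTPRK and PTPRU depart from the others just after the cysteine codon.
PTPRF, second: cacTGCagtgctggcgtgggcCGCacc
PTPRK, second: cacTGCctaaatggtggcgggCGAagt
PTPRU, second: cacTGCctaaacgggggaggaCGCagc
Each of the 16 copies is divided by an intron in the annotation. That of PTPRB lies on the minus strand of chromosome 12, its 27 bases spanning 70532152 to 70534495. Over these 27 bases the first copy of PTPRB differs from that of PTPRH by 4 bases and from that of PTPRJ by 5. No stretch of 50 bases in the transcripts of one of the 10 genes occurs in another of them, so reads of that length would not be divided among relatives.

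PTPRB was higher in every ELAPOR1 library. Its gene (ENSG00000127329.15, chromosome 12, 70515866 to 70637440, minus strand) received 55, 30, 43 and 36 counts in control replicates 1 to 4 and 137, 149, 139 and 158 counts in ELAPOR1 replicates 1 to 4. These are 3.05, 1.77, 2.58 and 2.19 CPM in control and 8.41, 9.91, 10.01 and 9.11 CPM with ELAPOR1, so that the lowest ELAPOR1 library stood well above the highest control library. The means were 2.40 ± 0.545 and 9.36 ± 0.750 CPM (SD, n = 4 each). The log2 fold change was 1.95 (SE 0.151), or 3.88-fold. Counting PTPRB itself, 42 of 13860 tested genes had a log2 fold change at least as large. In bulk libraries more cells with PTPRB and more PTPRB RNA per cell cannot be told apart. Counts were whole numbers in all 8 libraries. The annotation has AC025569.1 and AC083809.1 on the opposite strand of PTPRB, and 6.36% of the stretches of 50 bases in PTPRB transcripts occur in other genes, AC025569.1 first among them. Whether strand was used in counting is not given in the sources used here, and AC025569.1 was itself at 1.56 CPM in control and 2.16 CPM with ELAPOR1, a difference that did not pass the test.

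Across the family the differences went both ways. PTPRB and PTPRE were higher with ELAPOR1, and PTPRF, PTPRH and PTPRJ were lower, by an edgeR adjusted p under 0.05 in the fit over all 13860 genes. For PTPRB this follows from how the gene was chosen. That makes 5 of 8 tested, 2 higher and 3 lower, where 44.7% of all tested genes passed (22.6% higher and 22.1% lower); the genes were listed with this contrast known, and nothing is read from the count. The same 5 genes were those whose CPM did not overlap between groups, against 39.2% of all tested genes. The median log2 fold change of the 8 was -0.053, and that of all tested genes was 0.00087.

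**Figure D1:**
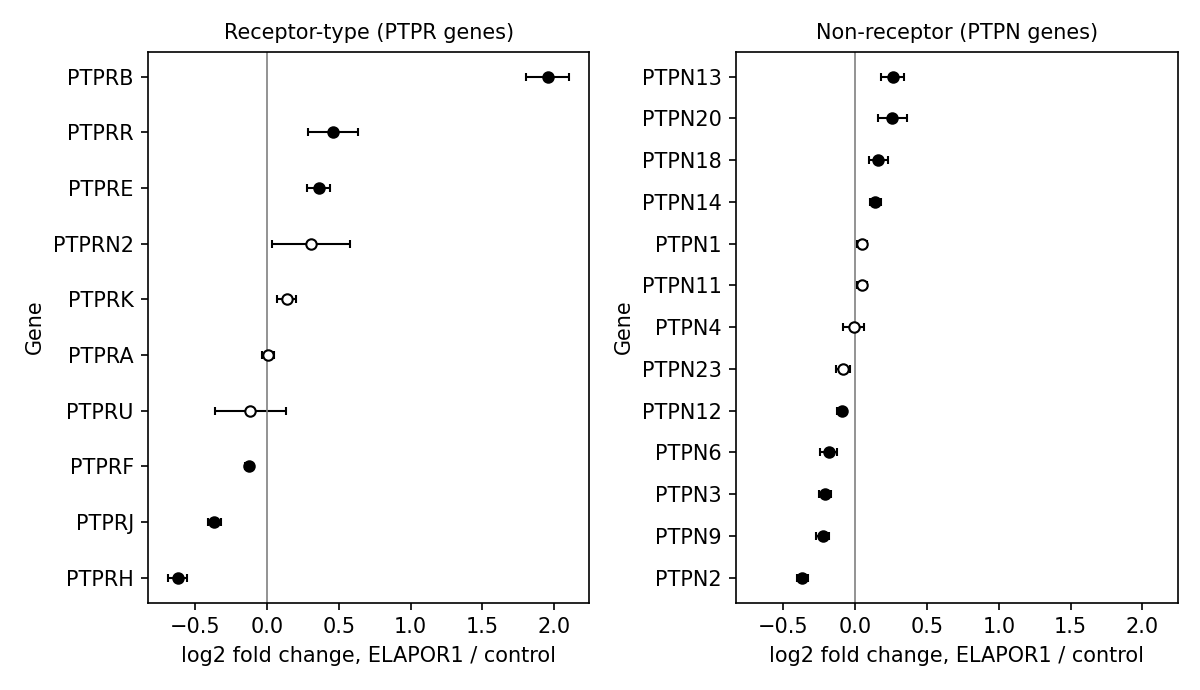
Log2 fold change (ELAPOR1 over control, x axis) of the tested receptor-type phosphatases on the left and of the non-receptor phosphatases on the right; bars are standard errors, and filled points passed an edgeR adjusted p under 0.05. PTPRB stands at 1.95, while the 13 non-receptor genes lie between -0.37 and 0.26.

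PTPRB, PTPRH and PTPRJ belong to the same subtype, with a single phosphatase domain and an outer part made of fibronectin-type repeats, and they did not move alike. PTPRH, known from the microvilli of gastrointestinal epithelium, lies on chromosome 19 (55181248 to 55209506, minus strand; ENSG00000080031.10). It was at 35.6, 34.9, 38.8 and 38.3 CPM in control replicates 1 to 4 and at 23.6, 24.95, 25.3 and 22.2 CPM in ELAPOR1 replicates 1 to 4. All ELAPOR1 libraries were below all control libraries, with a log2 fold change of -0.62 (SE 0.0634), or 1.54-fold lower. PTPRJ, which acts on growth factor receptors such as MET and EGFR, lies on chromosome 11 (47980558 to 48170841, plus strand; ENSG00000149177.13). It was at 117, 113, 119 and 109 CPM in control and 90.8, 94.0, 78.4 and 91.5 CPM with ELAPOR1. Again the groups did not overlap, and ELAPOR1 replicate 3 was the lowest library; the log2 fold change was -0.37 (SE 0.0453), and -0.32 without that library.

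The balance among these single-domain genes shifted accordingly. Per kilobase of exon, PTPRJ was 58.2 to 96.4 times the level of PTPRB in control libraries and 11.8 to 16.3 times with ELAPOR1. PTPRH was 39.1 to 65.9 times PTPRB in control and 8.16 to 9.38 times with ELAPOR1. PTPRB thus remained the least abundant of the 3 in every library, although it was the one that was higher. PTPRO and PTPRQ, which share the subtype, had no counts in control and at most 1 and 2 counts in an ELAPOR1 library.

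**Figure D2:**
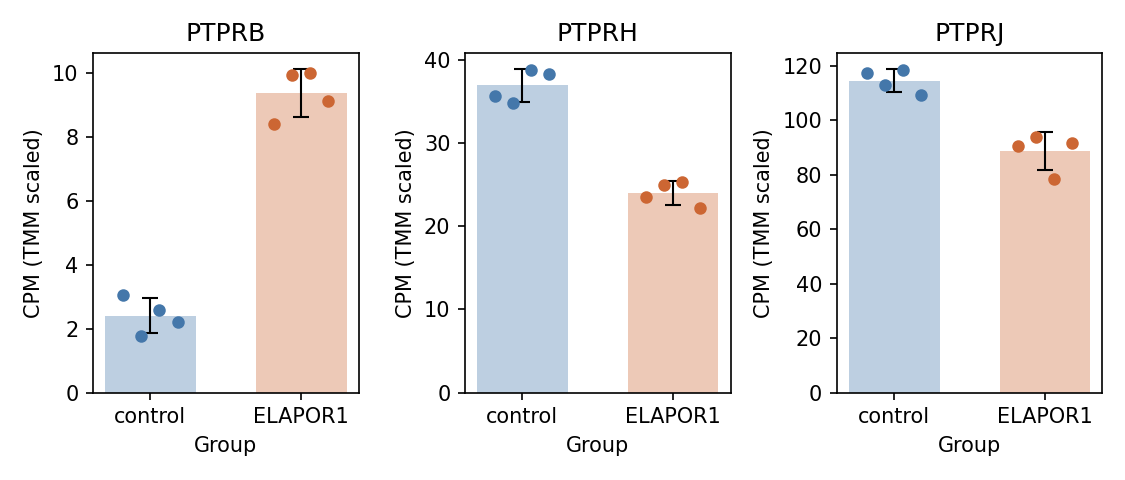
CPM (y axis, TMM scaled) of PTPRB, PTPRH and PTPRJ in the 2 groups; points are libraries, bars are means and whiskers are SD (n = 4 each). PTPRB is higher and PTPRH and PTPRJ are lower in each ELAPOR1 library than in any control library; the y axes differ between panels.

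PTPRA and PTPRE form a subtype with a short, sugar-rich outer part, and both are known as activators of SRC-family kinases. PTPRE (chromosome 10, 127907061 to 128085855, plus strand; ENSG00000132334.16) was at 13.6, 15.99, 14.3 and 14.3 CPM in control replicates 1 to 4 and at 18.2, 17.6, 19.6 and 19.2 CPM with ELAPOR1. Every ELAPOR1 library was above every control library, with a log2 fold change of 0.36 (SE 0.0798), or 1.28-fold. PTPRA (chromosome 20, 2864184 to 3039076, plus strand; ENSG00000132670.20) was at 71.2 to 74.8 CPM in control and 71.7 to 76.9 CPM with ELAPOR1. The groups overlapped, with ELAPOR1 replicate 4 the highest library, and the log2 fold change was 0.0092 (SE 0.0423). PTPRA shares 11.1% of its stretches of 50 bases with VPS16, which overlaps it on the same strand, and its estimated counts were not whole in 7 of 8 libraries.

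PTPRF, also called LAR, and PTPRS carry immunoglobulin and fibronectin domains, bind heparan sulfate proteoglycans, and are held at the membrane cortex by liprins. PTPRF (chromosome 1, 43525187 to 43623666, plus strand; ENSG00000142949.17) was the most abundant of the family, at 631, 615, 614 and 594 CPM in control replicates 1 to 4 and 547, 578, 553 and 570 CPM with ELAPOR1. The groups did not overlap, yet the step was small: a log2 fold change of -0.13 (SE 0.0284), or 1.09-fold lower. PTPRS (chromosome 19, 5158495 to 5340803, minus strand; ENSG00000105426.16) was barely detected, with 2, 0, 1 and 4 counts in control and 1, 0, 0 and 2 with ELAPOR1. In these libraries 3 counts correspond to 0.166 to 0.216 CPM, and a difference in PTPRS was not detectable at this depth.

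PTPRK and PTPRU have an outer MAM domain, and PTPRK is known for binding itself between neighbouring cells and for acting on catenins and the EGF receptor. PTPRK (chromosome 6, 127968779 to 128520674, minus strand; ENSG00000152894.14) was at 43.9, 35.2, 36.2 and 34.0 CPM in control replicates 1 to 4 and at 42.5, 39.3, 43.3 and 39.4 CPM with ELAPOR1. Control replicate 1 was the highest of all 8 libraries, and the other 3 control libraries were below every ELAPOR1 library. The log2 fold change was 0.14 (SE 0.0664) and did not pass the test; without control replicate 1 it was 0.22 and passed. PTPRU (chromosome 1, 29236516 to 29326813, plus strand; ENSG00000060656.20) had 22 to 51 counts per library, and its groups overlapped at 1.83 to 3.06 CPM in control and 1.58 to 2.99 CPM with ELAPOR1. Its log2 fold change of -0.12 has an SE of 0.244, so a change of moderate size in either direction would not have been seen.

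PTPRG, whose outer part resembles carbonic anhydrase and binds contactins, was at 0 or 1 counts in every library (ENSG00000144724.20, chromosome 3, 61561569 to 62297613, plus strand). PTPRG-AS1, annotated on the opposite strand of PTPRG, had 73 to 110 counts per library, and 7.40% of the stretches of 50 bases in PTPRG transcripts occur in it. Its log2 fold change was 0.29 (SE 0.140), which did not pass the test (edgeR adjusted p = 0.0917).

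Levels of different genes were compared per length, as CPM per kilobase of merged exons. In control libraries the order was PTPRF at 57.3 ± 1.41, PTPRA at 16.4 ± 0.390, PTPRJ at 11.9 ± 0.437, PTPRH at 8.50 ± 0.451, PTPRK at 4.15 ± 0.498, PTPRE at 1.29 ± 0.0901, PTPRU at 0.336 ± 0.0847 and PTPRB at 0.165 ± 0.0375 CPM per kilobase (SD, n = 4 each). No neighbours in this order overlapped in their ranges over the control libraries except PTPRS and PTPRG, which came last. With ELAPOR1, PTPRB reached 0.644 ± 0.0516 CPM per kilobase and passed PTPRU, at 0.309 ± 0.0944, with no overlap. PTPRF made up 56.8 ± 0.313% of the summed level of all 20 receptor-type genes in control and 57.0 ± 0.294% with ELAPOR1, while PTPRB went from 0.163 ± 0.0344% to 0.699 ± 0.0538%. The summed level was 98.1 to 103 CPM per kilobase in control and 90.3 to 94.3 with ELAPOR1, a difference carried mainly by PTPRF, PTPRH and PTPRJ.

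**Figure D3:**
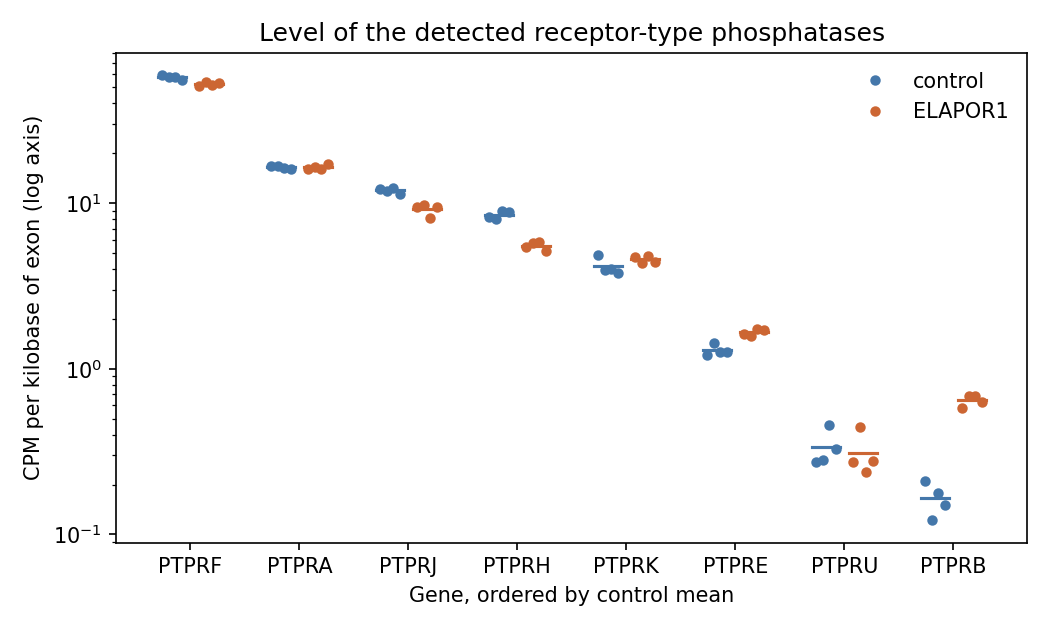
CPM per kilobase of exon (log axis) of the 8 detected genes, ordered by the control mean; points are libraries and lines are group means. PTPRB goes from 0.165 in control to 0.644 with ELAPOR1 and changes place with PTPRU; PTPRF leads in both groups.

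Of the remaining 10 receptor-type genes, 8 were at or near 0 counts. PTPRD, PTPRM and PTPRN had no counts in any library, which at 3 counts leaves room for at most 0.166 to 0.216 CPM; PTPRC, PTPRO, PTPRQ and PTPRT had at most 2 counts in a library and PTPRZ1 at most 5. Only PTPRR and PTPRN2 were tested. PTPRR, a phosphatase that acts on MAP kinases, was at 2.44, 3.42, 3.48 and 2.93 CPM in control replicates 1 to 4 and 3.68, 4.32, 4.25 and 4.56 CPM with ELAPOR1. The gene rose on the log2 scale by 0.46 (SE 0.175, adjusted p = 0.0328 by edgeR), and every ELAPOR1 library was above every control library. That call was lost with the DESeq2 Wald test and without any one of control replicates 1 and 4 and ELAPOR1 replicates 2, 3 and 4, with log2 fold changes of 0.35 to 0.52 over the 8 libraries left out in turn (adjusted p from 0.025 to 0.117 over all alternatives). PTPRN2 did not pass (0.31, SE 0.273, edgeR adjusted p = 0.387). Per kilobase of merged exons, the level of PTPRR was 0.596 ± 0.0944 CPM in control and 0.817 ± 0.0721 CPM with ELAPOR1 (SD, n = 4 each), above that of PTPRB in both groups.

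PTPRR is also the gene next to PTPRB. Both lie on the minus strand of chromosome 12, and 632 bases separate the end of PTPRR (its gene body runs from 70638073 to 70920843) from the start of PTPRB. Of 8 tested genes that start within 1 Mb of the PTPRB start, 2 were higher (BEST3 and PTPRR), 1 was lower (RAB3IP) and 5 did not pass, where 44.7% of all tested genes passed; the median log2 fold change of the 8 was 0.062. BEST3, a chloride channel gene, rose from 1.71 to 3.37 CPM (0.97, SE 0.221, edgeR adjusted p = 4.8e-04). RAB3IP, an exchange factor for RAB8 GTPases, fell from 70.2 to 57.6 CPM (-0.28, SE 0.0463, edgeR adjusted p = 5.5e-06). CNOT2 and KCNMB4, between them and PTPRB, were at -0.087 and -0.072 and did not pass.

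**Figure D4:**
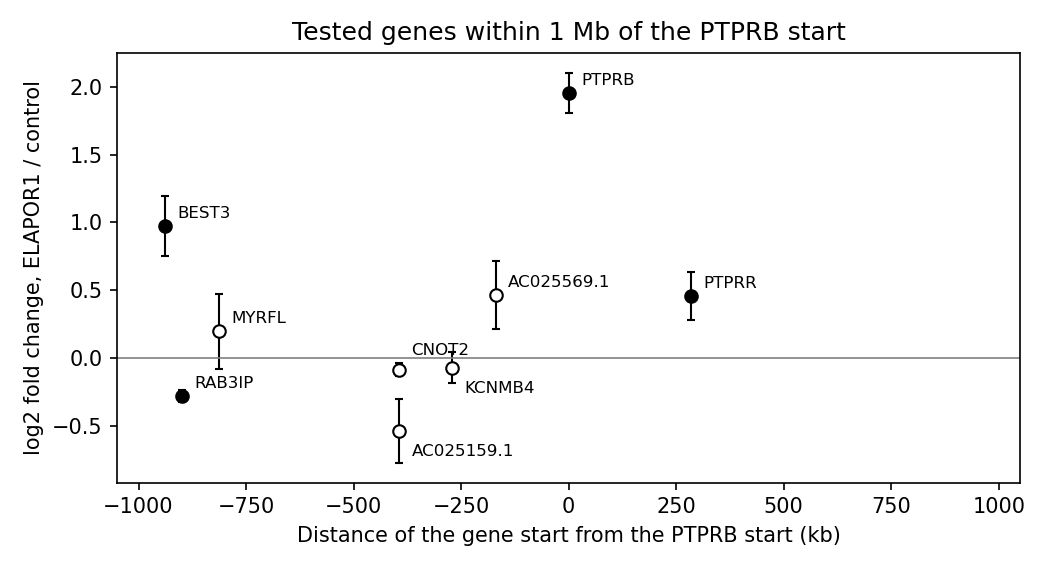
Log2 fold change (ELAPOR1 over control, y axis, with standard error) of tested genes against the distance of their start from the PTPRB start in kb; filled points passed an edgeR adjusted p under 0.05. PTPRB at 1.95 is above its 8 neighbours, which lie between -0.54 and 0.97.

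Since PTPRB is known from endothelium, endothelial markers were examined beside it. Of 14 markers, CDH5, TIE1, FLT1, EMCN and CLDN5 had no counts in any library; PECAM1, ERG, TEK and KDR had at most 3 counts in a library. ENG and ROBO4 did not pass the filter either, and their differences were not tested. ENG had 13, 6, 6 and 6 counts in control replicates 1 to 4 and 0, 1, 0 and 5 with ELAPOR1. ROBO4 had 7, 11, 14 and 9 counts in control and 4, 4, 4 and 6 with ELAPOR1. In both genes the groups stood only narrowly apart in CPM. Of all tested genes, 19.3% were lower with no overlap. The summed level of the 14 was 24.3 to 29.1 CPM in control and 17.7 to 21.1 CPM with ELAPOR1, the opposite direction to PTPRB. Most of that sum was EGFL7, at a mean of 15.3 CPM in control and 10.9 CPM with ELAPOR1, and ESAM, at 7.77 and 6.80 CPM. The 3 tested markers were EGFL7, which fell (log2 fold change -0.49, SE 0.0991, edgeR adjusted p = 1.2e-04), VWF, which fell (-1.14, SE 0.295, edgeR adjusted p = 1.9e-03), and ESAM, at -0.19 and not called. VWF was low throughout, at 1.69 CPM in control and 0.76 CPM with ELAPOR1, with 8 to 32 counts per library. Of 8 leukocyte and 8 fibroblast markers, 7 and 6 did not pass the filter on low counts. The tested leukocyte marker, CD68, fell from 84.4 to 75.7 CPM (-0.16, SE 0.0417, edgeR adjusted p = 2.1e-03). The tested fibroblast markers, COL1A1 and ACTA2, were at 3.35 and 1.25 CPM in control and were not called. Among the known partners and substrates of PTPRB in vessels, ANGPT4, CDH5, FGD5 and TIE1 had no counts, and TEK, ANGPT1, ANGPT2 and KDR at most 3 in a library. Only VEGFA and PLCG1 were tested: VEGFA, the vessel growth factor, fell from 79.5 ± 2.91 to 57.9 ± 2.09 CPM (-0.46, SE 0.0445, edgeR adjusted p = 2.1e-10), and PLCG1, a phospholipase downstream of growth factor receptors, rose by 0.18 (SE 0.0671, edgeR adjusted p = 0.0324) with overlapping groups. The call of PLCG1 was lost with the DESeq2 Wald test and without any one of control replicates 2, 3 and 4 and ELAPOR1 replicates 3 and 4 (0.14 to 0.18 without them).

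Ligands and partners of the other members were measured in 19 of 37 genes, of which 13 passed the test, 8 higher and 5 lower (68.4%, against 44.7% of all tested genes; median log2 fold change 0.089). THBS1, thrombospondin 1, a reported ligand of PTPRJ, rose from 128 ± 6.30 to 229 ± 5.35 CPM (0.84, SE 0.0352, edgeR adjusted p = 1.1e-19), while PTPRJ itself was lower. Synaptic adhesion genes were listed as partners of the subtype of PTPRF and PTPRS, and which receptor each binds was not tested. Among them SLITRK5 fell from 4.88 ± 0.381 to 1.85 ± 0.200 CPM (-1.39, SE 0.182, edgeR adjusted p = 1.0e-07). IL1RAPL1 rose from 1.48 ± 0.331 to 3.59 ± 0.922 CPM (1.27, SE 0.231, edgeR adjusted p = 2.8e-05). LRFN4 fell from 19.97 to 15.53 CPM (-0.36, SE 0.0820, edgeR adjusted p = 4.4e-04), and IL1RAP, at -0.029, did not pass. Of the heparan sulfate proteoglycans in the list, GPC1 (0.42), SDC4 (0.36) and SDC3 (0.24) rose, AGRN (-0.31) and HSPG2 (-0.31) fell, and SDC2, GPC4 and GPC6 had no counts. SDC1 was at 0.089, a call (edgeR adjusted p = 0.0472) that was lost without any one library other than control replicates 2 and 4. Of the liprin family, PPFIBP2 fell from 9.79 to 7.05 CPM (-0.47, SE 0.108, edgeR adjusted p = 5.5e-04). PPFIA1 rose from 108 to 117 CPM (0.12, SE 0.0401, edgeR adjusted p = 0.0146) with overlapping groups. PPFIBP1, PPFIA3 and PPFIA4 did not pass, and PPFIA2 was not tested.

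Of 33 substrates at cell contacts and kinases on which these phosphatases act, 25 were tested. Of these 14 passed, 8 higher and 6 lower (56%, against 44.7% of all tested genes), and 11 did not, with a median log2 fold change of -0.010. The catenins JUP (plakoglobin; 189 ± 10.8 to 251 ± 3.12 CPM, 0.41, SE 0.0346, edgeR adjusted p = 6.9e-12) and CTNNB1 (beta-catenin; 0.28, SE 0.0345, edgeR adjusted p = 3.8e-08) rose, and CTNNA1 fell by 0.13. BCAR1, a docking protein of focal adhesions and a substrate of PTPRF, PTPRH and other phosphatases, rose from 99.9 ± 4.63 to 144 ± 2.60 CPM (0.53, SE 0.0375, edgeR adjusted p = 1.0e-13). Of the receptor kinases, MET rose by 0.21, while ERBB3 fell by 0.33 and INSR by 0.25 on the log2 scale. EGFR was at -0.016 and did not pass, nor did ERBB2, IGF1R and FGFR2. SRC, a substrate of PTPRA and PTPRE, was at -0.061 and did not pass.

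The proteases that cut receptor-type phosphatases, first by furin-like convertases and then by ADAM10 and gamma-secretase, included 11 tested genes of 13, with 3 higher, 2 lower (45.5%, against 44.7% of all tested genes) and a median of -0.041. PCSK7, a convertase, rose from 36.8 ± 1.74 to 52.5 ± 2.23 CPM (0.52, SE 0.0531, edgeR adjusted p = 7.5e-10), and FURIN, at -0.041, did not pass. In gamma-secretase, APH1B fell from 7.38 ± 0.938 to 4.42 ± 0.410 CPM (-0.74, SE 0.136, edgeR adjusted p = 3.5e-05) and PSENEN rose by 0.31 (SE 0.0777, edgeR adjusted p = 1.2e-03). ADAM10 fell by 0.10 (SE 0.0340, edgeR adjusted p = 0.0143), a call lost under total count scaling and without ELAPOR1 replicate 2 (fell by 0.094).

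Of 16 non-receptor phosphatases, 13 were tested and 9 passed, 4 higher and 5 lower (69.2%, against 44.7% of all tested genes), with a median of -0.012 and no log2 fold change beyond 0.37 in size. PTPN2, which acts on JAK and STAT proteins, fell from 99.3 ± 2.11 to 76.9 ± 2.86 CPM (-0.37, SE 0.0404, edgeR adjusted p = 2.8e-09), PTPN9 fell by 0.23 (edgeR adjusted p = 5.3e-05), PTPN13 rose by 0.26 (adjusted p = 9.5e-03) and PTPN20 rose by 0.26 (adjusted p = 0.0401). The estimated counts of PTPN20 were partly not whole, and its call was lost with the DESeq2 Wald test and without any one of control replicates 2 and 3 and ELAPOR1 replicates 1, 3 and 4 (0.16 to 0.28). PTPN11, a positive regulator of growth factor signalling, had the most counts of the list and did not pass (0.047).

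**Figure D5:**
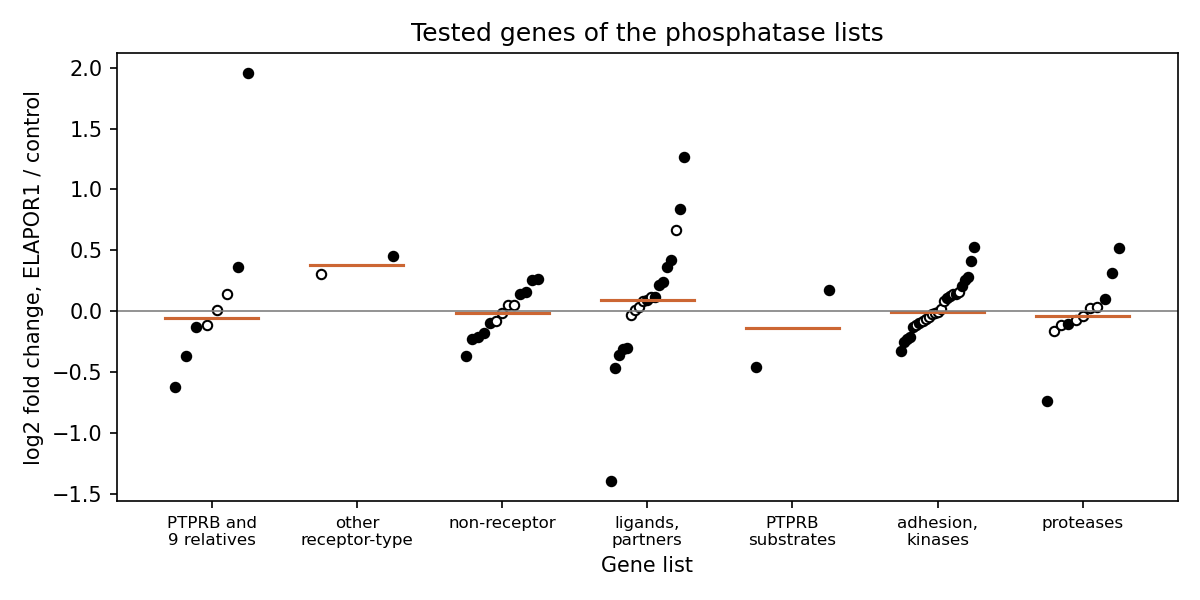
Log2 fold change (ELAPOR1 over control, y axis) of every tested gene in 7 lists; filled points passed an edgeR adjusted p under 0.05 and orange lines are list medians. PTPRB at 1.95 is the highest point, SLITRK5 at -1.39 the lowest, and the list medians lie between -0.14 and 0.38.

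The genes whose level followed PTPRB most closely were found by Pearson correlation of log2(CPM + 1) over the 8 libraries, among 10702 genes that averaged 5 CPM or more. The highest were DYNC1LI2 (a dynein chain), CTCF (a chromatin insulator protein), NFATC2IP, TRUB1 and FUT8, with r from 0.994 to 0.997. The lowest were RPL30, RPL41, SNHG29, RSL24D1 and CLDN7, the first 2 of them ribosomal proteins, with r from -0.999 to -0.996. These values rest on 2 groups that are far apart in PTPRB, so any gene with a clear and even difference between groups gets a high r. Among the relatives of PTPRB, the r with it was -0.94 for PTPRH, -0.90 for PTPRJ, -0.84 for PTPRF, 0.86 for PTPRE, 0.64 for PTPRK, 0.10 for PTPRA and -0.15 for PTPRU.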

How the data were processed

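RNA from 4 control and 4 ELAPOR1 libraries was sequenced on an Illumina NextSeq. The authors deposited expected counts per gene, not scaled between libraries, per the file name; 15.0% of nonzero values were not whole. Cutadapt, STAR, RSEM, DESeq2 and hg38 are named in the submitters' processing notes; versions, annotation and use of strand are not given in the sources used here. Every column was matched to a sample by title.

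The counts were rounded and tested with edgeR 4.0.16 (R 4.3.3): filterByExpr, TMM, robust quasi-likelihood test, two-sided, no covariate, Benjamini-Hochberg adjustment over 13860 genes, called at an adjusted p under 0.05. Standard errors are the log2 fold change divided by the square root of F. Totals were compared with an exact permutation test. Coordinates, lengths and sequences are from GENCODE release 29 (GRCh38), matched by gene identifier without version. The members and lists were chosen with earlier results of these data known, and lists are described by counts and medians only. Named genes are the 10 members, the other receptor-type genes, up to 4 called genes of each list with the largest change and a mean of at least 1 CPM, the 5 genes most and least like PTPRB, and its neighbours within 1 Mb; further list genes named were picked after their values were seen. PTPN21 was not analysed here.

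Alternatives were DESeq2 1.42.0 size factors and Wald test, total count scaling, limma-voom (limma 3.58.1), other count filters, a block for the replicate number, leaving out each library or ELAPOR1, an adjusted p under 0.01, a test against a 1.5-fold change, and the longest transcript as length. The procedure was tested on simulated data, in which it recovered the changed genes. Replicate libraries of a group differed by more than sampling noise in every pair (chi-square per degree of freedom from 1.94 to 6.13). Plots were drawn with matplotlib 3.10.9.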

Additional observations from a re-analysis of the deposited data

How the results depend on the processing

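Of 128 log2 fold changes of the 8 tested phosphatases under 16 alternatives, 127 kept their side of the threshold, none of the 5 called genes changed direction, and 1 (PTPRK without control replicate 1) newly passed. PTPRB stayed between 1.83 and 2.09. Of 32 other named genes that were refitted, 5 lost a call under some alternative (ADAM10, PLCG1, PTPN20, PTPRR and SDC1) and none reversed. SDC1 lost it under 10 alternatives, among them DESeq2 size factors, the DESeq2 Wald test, no filter beyond 1 count and the replicate block (0.087 to 0.089 under these 4). VWF kept its call under 15 alternatives and was dropped by the filter of 10 counts in every library. CD68, INSR, LRFN4 and PPFIA1, also called above, were not refitted under the alternatives. The count of all called genes was 5557 to 6316 and that of the 10 phosphatases 5 to 6 when single libraries were left out. Against a 1.5-fold change, 215 genes were called in all, 1 of the 10 phosphatases, 3 ligands and partners, and 0 in the other lists (at an unadjusted p under 0.05, 1 protease gene and 0 in the others). With an adjusted p under 0.01 the counts were 0 for other receptor-type genes (1 at an unadjusted p under 0.05), 5 for non-receptor phosphatases, 1 for PTPRB partners and 3 for proteases. The DESeq2 Wald test called 0 other receptor-type genes (1 unadjusted) and 1 PTPRB partner. With single libraries left out the counts were 0 to 1 for other receptor-type genes, 1 to 2 for PTPRB partners, 6 to 10 for non-receptor phosphatases and 3 to 7 for proteases, the 3 being without ELAPOR1 replicate 2. The causes were not tested, other than that fewer libraries or a stricter threshold were used. With the replicate number as a block, 5926 genes and the same number of phosphatases, 5, were called; libraries with the same number correlated by -0.11 to 0.036 in their deviations from the group means, so the numbers were not taken to pair libraries. With the longest transcript as length the order of levels was the same, and the control level of PTPRE was 2.53 in place of 1.29 CPM per kilobase. Counts of PTPRU, PTPRG and PTPRS are too low to show a moderate difference.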
